A study of Mus musculus with 36 samples.

Results

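The NF-kB feedback genes are genes that NF-kB itself switches on and whose products mostly act back on the pathway, and 10 of them were followed across Casp8 mutant embryos: Nfkbia, Nfkbie, Nfkbiz, Nfkb1, Nfkb2, Relb, Tnfaip3, Birc3, Tnfaip2 and Tnip1. They were chosen by name, and the 10 symbols matched 10 of the 52636 gene rows of the count tables, one row each. All 10 passed the filter on low counts in every tissue, with between 108 and 5598 reads per gene and library. RNA was sequenced from 36 mouse samples that fall into 12 groups of 3 biological replicates. The 30 intestinal samples came from embryos at day E18.5, and 6 samples came from mouse embryonic fibroblasts (MEFs) grown from embryos whose head and internal organs had been removed.

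The groups are named here by their mutations. One series of intestines carries Casp8 D387A, written 1xDA, in which the aspartate at the cleavage site between the subunits of caspase-8 is changed so that the enzyme cannot process itself there. Its groups are Mlkl KO (written Mlkl, the controls), Casp8 D387A KI alone (1xDA), Casp8 D387A KI with Cflar KO and Mlkl KO (1xDA/Cflar/Mlkl), and that genotype with Casp1 KO (1xDA/Cflar/Mlkl/Casp1), with Casp1 KO and Ifnar1 KO, or with Casp1 KO and Fadd KO. A second series carries Casp8 C362A, which changes the catalytic cysteine. Its groups are Mlkl KO controls of their own, C362A/Mlkl, C362A/Mlkl/Casp1 and C362A/Cflar/Mlkl. The MEFs are Mlkl and 1xDA/Cflar/Mlkl, untreated. Mlkl, the executioner of necroptosis, is therefore knocked out by label in every group, controls included, except 1xDA alone. By these labels a change against Mlkl is a change on a background that already lacks necroptosis. Cflar encodes cFLIP, the partner and restrainer of caspase-8. Casp1 encodes the inflammatory caspase-1, Ifnar1 a chain of the type I interferon receptor, and Fadd the adaptor that brings caspase-8 to death receptors. The knockouts and knock-ins are present in the whole animal, and no wild-type group was analysed here.

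NF-kB is a family of transcription factor dimers that inhibitors of the IkB family hold in the cytoplasm of resting cells. Signals from tumour necrosis factor receptors, Toll-like receptors and similar sensors lead to destruction of the inhibitor, and the freed dimer then turns on, among inflammatory genes, the genes of its own inhibitors and subunits, so that mRNA of these feedback genes is widely read as a trace of recent NF-kB activity. In the intestine the pathway is known both for protecting the epithelium from death and for driving inflammation when epithelium is lost.

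The letters that NF-kB is known to read, the kappaB motif, stood close before the transcription start of most of these genes, and those stretches are shown because the genes were selected as NF-kB targets. RefSeq promoter windows on GRCm38.p6 were found for 7 of the 10 genes, and 6 of those 7 held a match to the kappaB consensus on either strand within the 250 bases before a start (10 windows for the 7 genes, 8 with a match). A match to the same consensus was found in 7.251% of all 32851 promoter windows of that length. Each line below gives 30 bases in the direction of transcription, with the kappaB match in capitals.
Nfkbia, chr12:55492657-55492686, minus strand: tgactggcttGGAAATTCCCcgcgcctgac
Nfkbie, chr17:45555584-45555613, plus strand: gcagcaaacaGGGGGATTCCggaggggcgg
Nfkb2, start 1, chr19:46304689-46304718, plus strand: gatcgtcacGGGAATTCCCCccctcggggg
Nfkb2, start 3, chr19:46305695-46305724, plus strand: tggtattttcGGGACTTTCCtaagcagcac
Tnfaip3, chr10:19015411-19015440, minus strand: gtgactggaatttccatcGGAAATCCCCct
Tnfaip2, chr12:111442627-111442656, plus strand: gactattttaGGAGGGCCCCtccagggtcg
Tnip1, chr11:54962978-54963007, minus strand: tccatcatgGGGGAATTCCCCtcctgcctc

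The match shown began 29 bases before the start of Nfkbia, 106 before that of Nfkbie, 39 before start 1 of Nfkb2, 12 before the start of Tnfaip3, 24 before that of Tnfaip2 and 58 before that of Tnip1, and 225 before start 3 of Nfkb2. Further matches that are not shown began 11 bases before start 1 and 236 before start 2 of Nfkb2, and 125 before the start of Tnfaip3. A stricter form of the motif, fixed in every letter but the fifth and a subset of the consensus, was searched on both strands and found in 0.3562% of all windows and in those of Nfkbia and of start 3 of Nfkb2. The window of Birc3 held no match, which says only that these letters are not in its 250 bases.

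Each library held between 17943524 and 32307629 reads counted on genes (median 24334001). The targeted genes followed the labels where the deletion lowers the mRNA: Casp1 was at most 0.213 reads scaled to library size (CPM) in the Casp1 KO intestines against 42.6 to 124 in the other intestines, Fadd at most 1.01 against 25.5 to 50.5, and Ifnar1 33.2 to 37.9 against 76.1 to 103. Cflar and Mlkl reads remained in their knockouts, and they do not show whether the labels hold. Mlkl was at 4.78 to 5.35 CPM in the D387A series' controls and at 10.9 to 13.9 CPM in 1xDA, where the gene is intact, but at 22.2 to 26.9 CPM in 1xDA/Cflar/Mlkl, 45.8 to 55.9 CPM with Casp1 and Ifnar1 lost and 55.4 to 62.6 CPM with Casp1 and Fadd lost. Intestinal libraries carried the enterocyte markers, with a summed level of 1707 to 57292 reads scaled for exonic length and library size (RPKM), and the MEFs did not: 6 of those markers were at 0 in all 6 MEF libraries, whose fibroblast markers summed to more than in any intestine. Fewer cells of a type and less RNA per cell cannot be told apart in such bulk samples. One library stood apart from its group for these genes. The third 1xDA/Cflar/Mlkl/Casp1 embryo had Nfkbia at 141 RPKM where the other 2 had 58.1 and 56.5. Its Mlkl reads set it apart as well, at 46.1 CPM where the other 2 had 6.27 and 7.46, so Mlkl reads split within that genotype at the same embryo, and the counts and main values on that genotype are given with and without it. The sample titles carry a leading number that is shared by the Mlkl and 1xDA/Cflar/Mlkl intestines of the D387A series and is different for each of the other 4 genotypes, so for these 4 whatever the number marks and the genotype cannot be told apart.

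**Figure D1:**
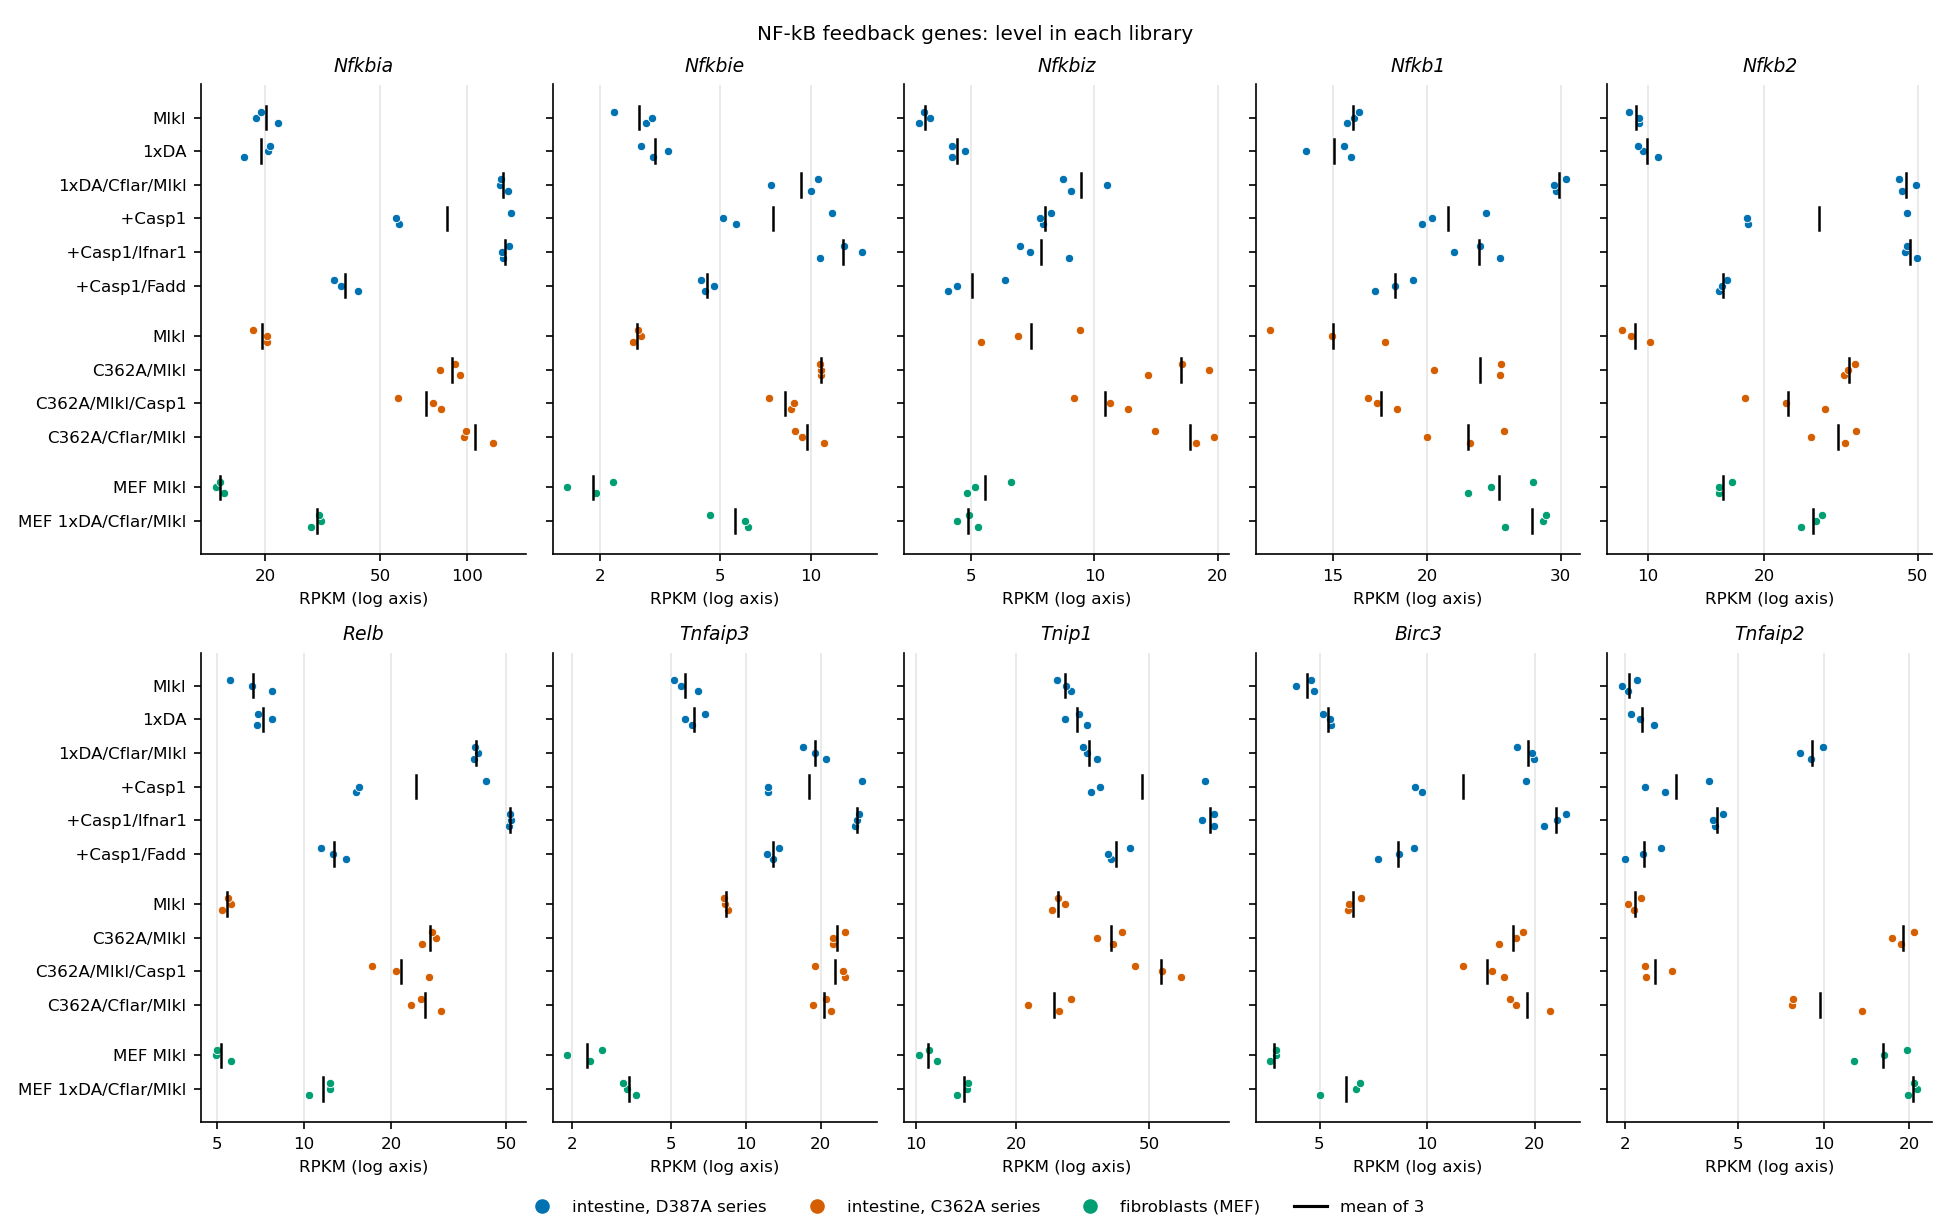
Level of each of the 10 genes in all 36 libraries, in RPKM on a log axis. Each point is 1 library, the black bar is the mean of the 3 libraries of a group, and colour gives the series. Nfkbia lies between 16.8 and 22.2 RPKM in the Mlkl and 1xDA intestines of the D387A series and between 130 and 139 in 1xDA/Cflar/Mlkl. One of the 3 points of the +Casp1 row lies far from the other 2 for 7 of the genes.

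Loss of Cflar together with the D387A mutation went with higher mRNA of nearly all 10 genes in the intestine. Against Mlkl intestines, 8 of the 10 rose in 1xDA/Cflar/Mlkl intestines by the thresholds used throughout (adjusted p below 0.05 and at least a 2-fold change), and a ninth passed the p threshold alone. Among all 18360 genes tested, 9.4% rose by the same thresholds and 29.9% by p alone. The median log2 fold change of the 10 genes was 1.92, beside -0.01 for all genes tested.

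The genes of the IkB inhibitors rose most clearly through Nfkbia, which encodes IkB-alpha, the inhibitor that NF-kB resynthesises first. Nfkbia was at 22.2, 18.6 and 19.4 RPKM in the 3 Mlkl intestines and at 139, 130 and 131 RPKM in the 3 1xDA/Cflar/Mlkl intestines. The groups were far apart, 6.64-fold (log2 fold change 2.73 ± 0.25 SE, adjusted p = 7.2e-08, n = 3 per group, as in every comparison here). Nfkbie encodes IkB-epsilon, which holds back RelA and c-Rel dimers. It went from 2.85, 2.97 and 2.23 RPKM to 9.98, 7.36 and 10.5 RPKM (1.79 ± 0.25 on the log2 scale, adjusted p = 8.8e-06). Nfkbiz, whose product IkB-zeta works in the nucleus as a co-activator of secondary response genes, rose less, from 3.73, 3.97 and 3.84 RPKM to 8.76, 10.7 and 8.40 RPKM (1.27 ± 0.13, adjusted p = 1.6e-07).

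Of the 3 subunit genes, those of the non-canonical dimer rose more than the gene of p105. Relb, the subunit that pairs with p52, was at 7.78, 6.61 and 5.56 RPKM in Mlkl and at 38.6, 39.9 and 39.2 RPKM in 1xDA/Cflar/Mlkl intestines. The rise was 5.90-fold (log2 2.56 ± 0.29, adjusted p = 6.5e-07). Nfkb2, which encodes p100, at once the precursor of p52 and an IkB-like inhibitor, rose from 9.49, 9.46 and 8.93 RPKM to 45.5, 49.6 and 44.7 RPKM (2.33 ± 0.25, adjusted p = 4.7e-07). Nfkb2 overlaps exons of Psd and AC114539.1 on the other strand, and the sources used here do not say whether counting used strand, so its values are less certain. Nfkb1, the gene of p105 and p50, was already at 15.7, 16.0 and 16.2 RPKM in Mlkl intestines and reached 29.6, 29.4 and 30.5 RPKM. Its groups did not overlap and its test was passed (adjusted p = 5.2e-08), but the change of 0.90 ± 0.08 on the log2 scale stayed under 2-fold.

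The genes that act on ubiquitin chains split. Tnfaip3 encodes A20, the ubiquitin-editing enzyme that shuts off signalling at the TNF receptor complex. It rose from 6.41, 5.50 and 5.16 RPKM to 21.0, 19.0 and 16.9 RPKM (1.74 ± 0.24, adjusted p = 7.7e-06). Birc3, the gene of the ubiquitin ligase cIAP2, rose from 4.81, 4.28 and 4.74 RPKM to 19.95, 19.6 and 17.9 RPKM (2.05 ± 0.20, adjusted p = 1e-07). Tnip1 encodes ABIN-1, the ubiquitin-binding partner of A20. It had the highest control level of the 10 genes per length, 29.1, 28.1 and 26.5 RPKM, and was at 34.9, 32.6 and 31.7 RPKM in 1xDA/Cflar/Mlkl intestines. That difference of 0.25 did not pass the test (95% interval -0.18 to 0.67, adjusted p = 0.3), although the 2 groups did not overlap, as was the case for 68.1% of all genes.

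Tnfaip2, a TNF-induced gene whose product shapes membrane protrusions and which is abundant in myeloid cells, was at 2.05, 1.96 and 2.20 RPKM in Mlkl intestines. It was at 9.01, 8.28 and 9.98 RPKM in 1xDA/Cflar/Mlkl intestines. Its log2 fold change of 2.13 ± 0.16 had the smallest adjusted p of the 10, 4.4e-09. Exons of Tnfaip2 overlap the antisense gene Gm40578, which is the same uncertainty as for Nfkb2.

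Other cell type markers moved in the same comparison. The summed level of the enterocyte markers was 33990 to 38707 RPKM in Mlkl and 1707 to 3147 RPKM in 1xDA/Cflar/Mlkl intestines. The summed neutrophil markers were 9.37 to 39.3 RPKM against 66.4 to 241 RPKM (Elane at 0 in all 3 mutants), and the summed macrophage and monocyte markers 191 to 215 against 252 to 328 RPKM. Smooth muscle (2648 to 2861 against 3719 to 4689), fibroblast (741 to 822 against 980 to 1034), endothelial (89.5 to 96.7 against 116 to 135) and T and NK cell markers (4.23 to 4.69 against 8.25 to 9.11) were also higher without overlap, and neuron and glia markers lower (98.0 to 110 against 83.8 to 87.6). Their part in the change of the 10 genes was not tested.

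**Figure D2:**
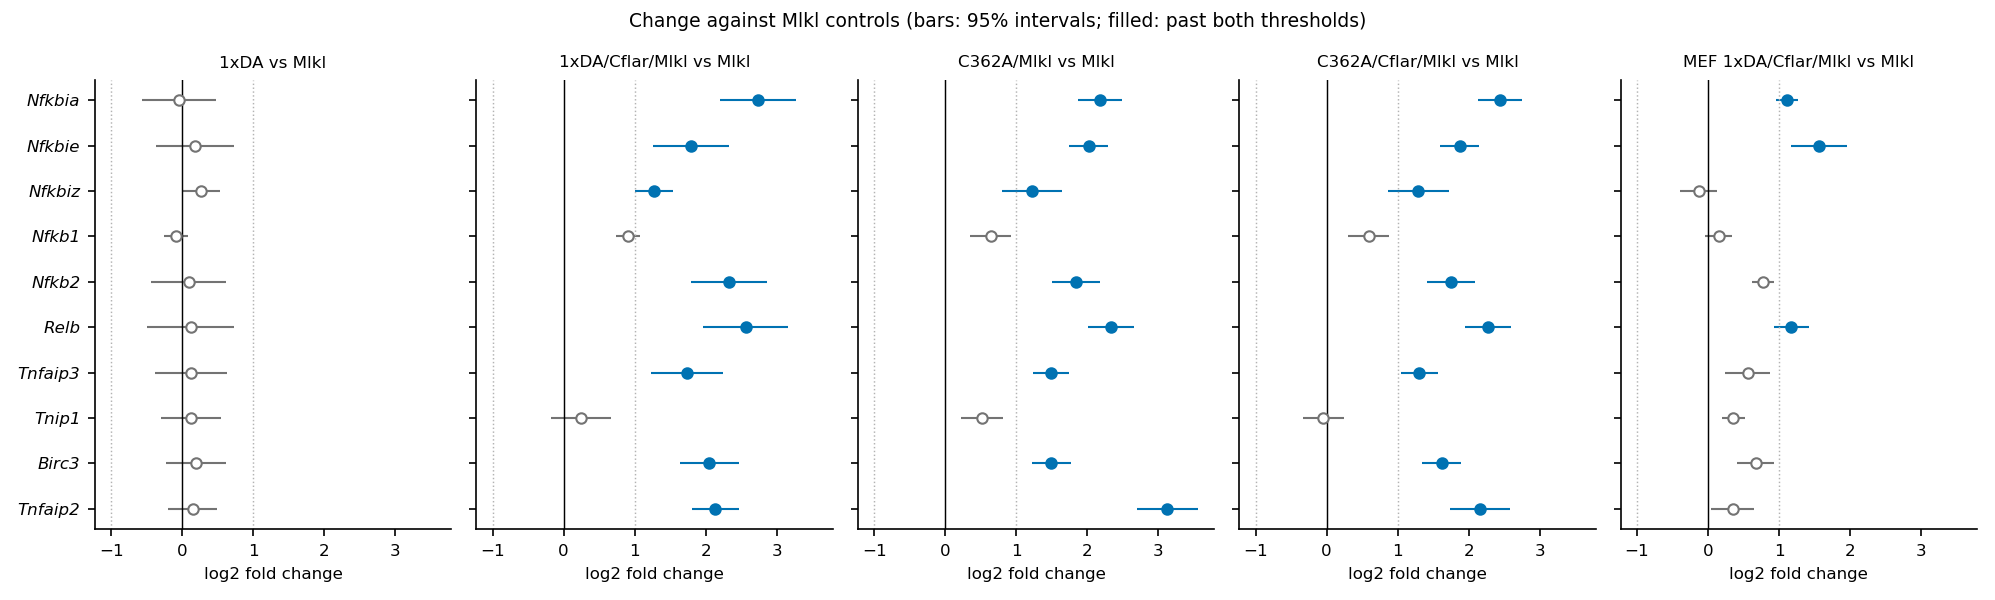
Log2 fold change of each gene against the Mlkl controls of its own series, with 95% intervals, in 5 comparisons. Filled points passed both thresholds and dotted lines mark a 2-fold change. No gene is filled in 1xDA alone, 8 are filled in 1xDA/Cflar/Mlkl, in C362A/Mlkl and in C362A/Cflar/Mlkl, and 3 are filled in the MEFs, where Nfkbie at 1.56 is the farthest to the right.

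The D387A mutation alone, with Cflar and Mlkl intact, was not accompanied by a detectable change of any of the 10 genes. None passed the test in edgeR, 0 of 10 (0.00545% of all genes passed in either direction, 1 gene of 18360, and 5.02% had an unadjusted p below 0.05, as did none of the 10), and limma-voom and DESeq2 also called 0 of the 10. Log2 fold changes ran from -0.08 (Nfkb1) to 0.26 (Nfkbiz). Nfkbia was at 16.8, 20.5 and 20.9 RPKM, beside 18.6 to 22.2 RPKM in the Mlkl embryos, so that the groups overlapped with the first 1xDA embryo below every control, and its 95% interval of -0.56 to 0.47 leaves out a 2-fold change. Nfkbiz (4.48, 4.84 and 4.50 RPKM) and Birc3 (5.40, 5.34 and 5.10 RPKM) were above every control embryo, while groups did not overlap for 15.6% of all genes. Enterocyte markers (40263 to 42324 against 33990 to 38707 RPKM) were higher and fibroblast markers (602 to 714 against 741 to 822 RPKM) lower without overlap, and their part was not tested. The intervals of all 10 genes lay within a 2-fold change in either direction, the widest being that of Relb (-0.49 to 0.73). The 2 groups differ in Mlkl as well as in Casp8, and their title numbers differ.

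With Casp1 lost in addition, the mean level of all 10 genes lay above that of the controls, by little for Tnfaip2, while most of the genes, in 2 of the 3 embryos, were below 1xDA/Cflar/Mlkl. Against Mlkl intestines, 6 of the 10 genes rose in 1xDA/Cflar/Mlkl/Casp1 (2.16% of all genes did), and all 10 passed the p threshold (10.2% of all genes did so upwards). Against 1xDA/Cflar/Mlkl, only Tnfaip2 was lower past both thresholds (4.51% of all genes were), 6 genes in all were lower by p alone (22.5% of all genes), and Tnip1 was higher by p alone (0.52 ± 0.20, adjusted p = 0.04), as were 24.5% of all genes.

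Tnfaip2 was at 2.77, 2.36 and 3.94 RPKM in the Casp1-deficient intestines, above the 1.96 to 2.20 of the controls without overlap (0.54 on the log2 scale, adjusted p = 0.022) and well under the 8.28 to 9.98 of 1xDA/Cflar/Mlkl. The fall was -1.59 ± 0.15 on the log2 scale (adjusted p = 2.9e-07). The summed neutrophil markers were also lower, at 17.1, 22.9 and 50.7 RPKM in these 3 embryos, and the enterocyte markers higher, at 18340 to 25013 RPKM. Smooth muscle (2386 to 2588), fibroblast (761 to 899) and T and NK cell markers (4.12 to 5.80 RPKM) were lower than in 1xDA/Cflar/Mlkl, and neuron and glia markers (90.5 to 103 against 83.8 to 87.6) higher, without overlap. Against Mlkl, endothelial markers (107 to 119) were higher and enterocyte and smooth muscle markers lower without overlap, and their part in the fall of Tnfaip2 was not tested. Nfkb1 likewise fell with no overlap between groups, to 19.7, 20.3 and 23.9 RPKM (-0.49 ± 0.08, adjusted p = 1e-04).

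For most of the other genes 1 embryo was far from the rest. Nfkbia was at 58.1, 56.5 and 141 RPKM, Nfkb2 at 18.1, 18.1 and 46.9 RPKM, and Relb at 15.1, 15.5 and 42.6 RPKM. The first 2 embryos lay between the controls and 1xDA/Cflar/Mlkl, and the third lay at or above the range of 1xDA/Cflar/Mlkl. Tnfaip3 (12.3, 12.2 and 29.4 RPKM), Birc3 (9.66, 9.24 and 18.9 RPKM) and Nfkbie (5.65, 5.12 and 11.7 RPKM) had the same split. Tnip1 (33.3, 35.6 and 73.6 RPKM) was split too, but there the first 2 embryos lay in or just above the 31.7 to 34.9 RPKM of 1xDA/Cflar/Mlkl. The third embryo was above all 3 of the 1xDA/Cflar/Mlkl embryos for Nfkbia, Nfkbie, Relb, Tnfaip3 and Tnip1, and within their range for Nfkb2 and Birc3. Nfkbiz (7.49, 7.39 and 7.85 RPKM) was nearly equal in the 3 embryos. The third embryo lacked Casp1 reads as its label says, its Mlkl reads were the high ones given above, and its summed macrophage and monocyte markers were 366 RPKM where the other 2 had 221 and 214. The part of the markers, and of whatever the Mlkl reads mark, in the split was not tested.

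Without the third embryo the picture of Casp1 loss in the D387A series changed. Against 1xDA/Cflar/Mlkl, 5 of the 10 genes were then lower past both thresholds in place of 1, and 8 in place of 6 by p alone, where 6.36% and 23.9% of all genes were: Tnfaip2 (-1.83 ± 0.13), Nfkb2 (-1.37 ± 0.07), Relb (-1.36 ± 0.10), Nfkbia (-1.22 ± 0.10) and Birc3 (-1.02 ± 0.09). Tnip1 was then level with 1xDA/Cflar/Mlkl (0.06 ± 0.09, adjusted p = 0.59), and Tnfaip3 was lower (-0.63 ± 0.10, adjusted p = 5.4e-05) where with all 3 embryos it had not passed (-0.08 ± 0.23). Without the first or the second embryo instead, 1 gene was lower past both thresholds, as were 4.28% and 3.68% of all genes. By p alone 2 genes were lower, as were 19.4% and 17.9% of all genes. Against Mlkl and without the third embryo, 5 genes in place of 6 rose (1.32% of all genes did), and 9 in place of 10 by p alone (7.14%). Tnfaip2 was the gene lost by p (0.31, adjusted p = 0.13). The 5 genes were Nfkbia at 1.51 ± 0.10, Relb at 1.2 ± 0.11, Tnfaip3 at 1.11 ± 0.10, Birc3 at 1.03 ± 0.09 and Nfkbie at 1.004 ± 0.17. The SE of Nfkbia in this comparison was 0.25 with and 0.10 without this embryo. The other 2 embryos also had more erythroid marker RNA, 7174 and 3511 RPKM in sum where the third had 1244, and the part of this in the split was not tested.

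**Figure D3:**
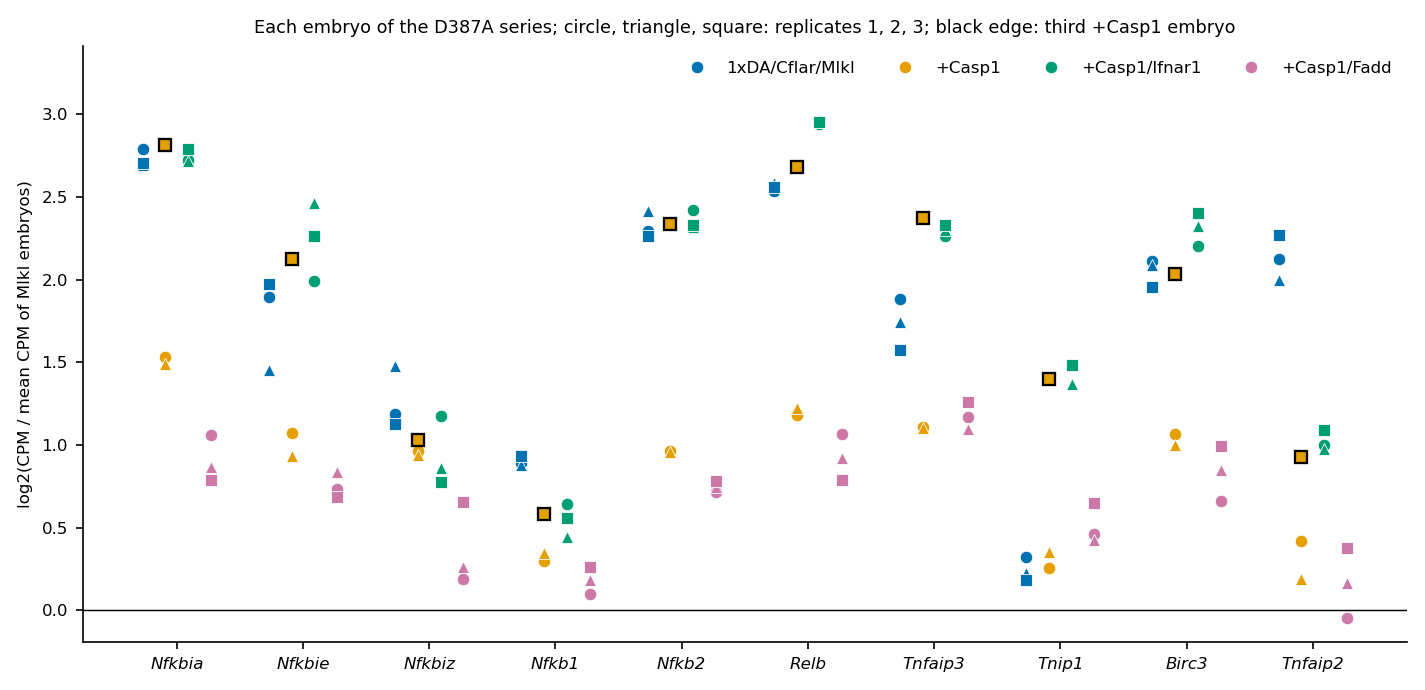
Each embryo of 4 genotypes of the D387A series as log2 of its CPM over the mean of the Mlkl embryos, for the 10 genes. Symbols give the replicate and the black-edged square is the third 1xDA/Cflar/Mlkl/Casp1 embryo. For Nfkbia, Nfkb2, Relb, Tnfaip3, Birc3, Nfkbie and Tnip1 that square lies far above the other 2 embryos of its genotype, for Nfkbiz it lies beside them, and for Tnfaip2 it lies above them but below every 1xDA/Cflar/Mlkl embryo.

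With Ifnar1 lost as well as Casp1, the feedback genes were high in all 3 embryos. Relb, Tnip1, Tnfaip3, Birc3 and Nfkbie lay above every 1xDA/Cflar/Mlkl embryo, as did 27.2% of all genes, and Tnfaip2 and Nfkb1 below every one, as did 26.6%, in a comparison that was not tested further. The summed macrophage and monocyte markers were 297 to 330 RPKM in these embryos (191 to 215 in Mlkl), the neutrophil markers 48.7 to 66.9 (9.37 to 39.3), the neuron and glia markers 72.2 to 73.6 (98.0 to 110) and the enterocyte markers 20371 to 29028 RPKM (33990 to 38707). Smooth muscle (2311 to 2463) and fibroblast markers (648 to 675) were below, and T and NK cell markers (5.70 to 7.22 RPKM) above, the controls without overlap. Their part was not tested. Against Mlkl, 8 of the 10 genes rose (6.76% of all genes did) and all 10 passed the p threshold (24.7%). Relb reached 51.2, 52.0 and 51.6 RPKM, the highest level of that gene in any group of the D387A series, 7.76-fold over the controls (log2 2.96 ± 0.29, adjusted p = 8.1e-07). Nfkbia was at 133, 132 and 139 RPKM, which overlaps the 130 to 139 of 1xDA/Cflar/Mlkl. Tnip1, which did not pass the test in 1xDA/Cflar/Mlkl, was at 78.1, 72.1 and 78.2 RPKM and rose 2.73-fold (1.45 ± 0.20, adjusted p = 2.3e-05). Nfkb1 (24.9, 21.7 and 23.5 RPKM) and Nfkbiz (8.68, 6.98 and 6.59 RPKM) passed the p threshold but stayed under 2-fold. Tnfaip2, at 4.14, 4.08 and 4.41 RPKM, was just past 2-fold (1.02 ± 0.16) and fell under it, to 0.98, without the second Mlkl or the third mutant embryo, and Nfkbiz passed at 1.01 without that mutant embryo.

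Against its direct comparison, 1xDA/Cflar/Mlkl/Casp1, the loss of Ifnar1 gave 1 gene higher past both thresholds, Relb at 1.08 ± 0.26 (adjusted p = 0.0062), where 3.28% of all genes were higher, and 8 genes higher by p alone (15.5%). For Relb, Birc3 and Tnfaip2 the groups did not overlap (35.7% of all genes did not). Birc3 was at 21.3, 23.1 and 24.4 RPKM (0.86 ± 0.19, adjusted p = 0.0029). Endothelial (84.7 to 95.1 against 107 to 119 RPKM), fibroblast (648 to 675 against 761 to 899) and neuron and glia markers (72.2 to 73.6 against 90.5 to 103) were lower than in 1xDA/Cflar/Mlkl/Casp1 without overlap, and their part was not tested. Nfkbiz and Nfkb1 did not pass, with intervals of -0.29 to 0.23 and -0.04 to 0.31. Without the third Casp1-deficient embryo 7 of the 10 were higher past both thresholds (6.06% of all genes were) and 9 by p alone (20.3%), led by Relb (1.75 ± 0.11), Nfkb2 (1.40 ± 0.07), Birc3 (1.28 ± 0.09), Nfkbie (1.25 ± 0.17) and Nfkbia (1.23 ± 0.10), and without the first or the second 0 were in edgeR (1.94% and 1.78% of all genes were), with Relb at 0.83 and 0.84. By adjusted p alone 2 of the 10 were then higher in each case (8.62% and 8.01% of all genes), and by unadjusted p 6 (16.4% and 16.2%). Without the third embryo more markers differed without overlap. Macrophage and monocyte (297 to 330 against 214 and 221 RPKM) and neutrophil markers (48.7 to 66.9 against 17.1 and 22.9) were higher. So were T and NK cell (5.70 to 7.22 against 4.12 and 4.20) and B cell markers (1.43 to 1.58 against 1.03 and 1.36). Erythroid markers (533 to 1717 against 3511 and 7174) were lower, and the part of these markers was not tested.

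With Fadd lost on the Casp1-deficient background, 1 of the 10 genes was above the controls past both thresholds. This was Tnfaip3, at 12.8, 12.2 and 13.6 RPKM (1.18 ± 0.24, adjusted p = 0.0024), where 2.81% of all genes rose, and 7 of the 10 passed by p alone and upwards, beside 9.97% of all genes. Nfkbia was at 41.9, 36.6 and 34.6 RPKM, above all 3 controls (0.91 ± 0.24, adjusted p = 0.015). Relb at 14.0, 12.6 and 11.5 RPKM and Birc3 at 7.30, 8.32 and 9.19 RPKM were also above every control embryo. Across the list, 9 of the 10 genes had groups that did not overlap in this comparison, beside 38% of all genes. Tnfaip2 was at 2.01, 2.32 and 2.68 RPKM, overlapping the controls (0.17, 95% interval -0.16 to 0.51). Without the first Mlkl embryo Relb also passed both thresholds, at 1.05 (adjusted p = 0.048).

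Against 1xDA/Cflar/Mlkl/Casp1, Nfkbia was the 1 gene lower past both thresholds (-1.18 ± 0.24, adjusted p = 0.0028), where 0.877% of all genes were lower, and 6 of the 10 were lower by p alone (7.35%). This comparison rested on the same embryo. Without it none of the 10 was lower past both thresholds in edgeR (0.894% of all genes were), 3 were lower by adjusted p (9.7%) and 4 by unadjusted p (16.5%), while Tnip1 was higher by unadjusted p alone (0.21), and Nfkbia was at -0.61 ± 0.10 (adjusted p = 0.00016) and Nfkbiz at -0.57 ± 0.14 (adjusted p = 0.0061), whereas without the first or the second Casp1-deficient embryo 3 were lower past both thresholds (0.846% and 1% of all genes were). The Fadd-deficient embryos carried summed enterocyte markers of 34939 to 40504 RPKM, which overlaps the controls, and summed neutrophil markers of 20.7 to 53.0 RPKM. Their macrophage and monocyte (215 to 234) and T and NK cell markers (4.86 to 7.69) lay just above, and their smooth muscle (2178 to 2557), fibroblast (645 to 715) and neuron and glia markers (75.4 to 92.9 RPKM) below, those of the controls without overlap. Against 1xDA/Cflar/Mlkl/Casp1, enterocyte markers were higher (18340 to 25013 RPKM there), and endothelial (88.1 to 91.4 against 107 to 119) and fibroblast markers (761 to 899 there) lower without overlap. Without the third Casp1-deficient embryo 3 further marker sums differed from that group without overlap. T and NK cell markers were higher (4.12 and 4.20 RPKM there). Erythroid (577 to 1516 against 3511 and 7174) and neuron and glia markers (98.4 and 103 there) were lower. Their part was not tested.

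**Figure D4:**
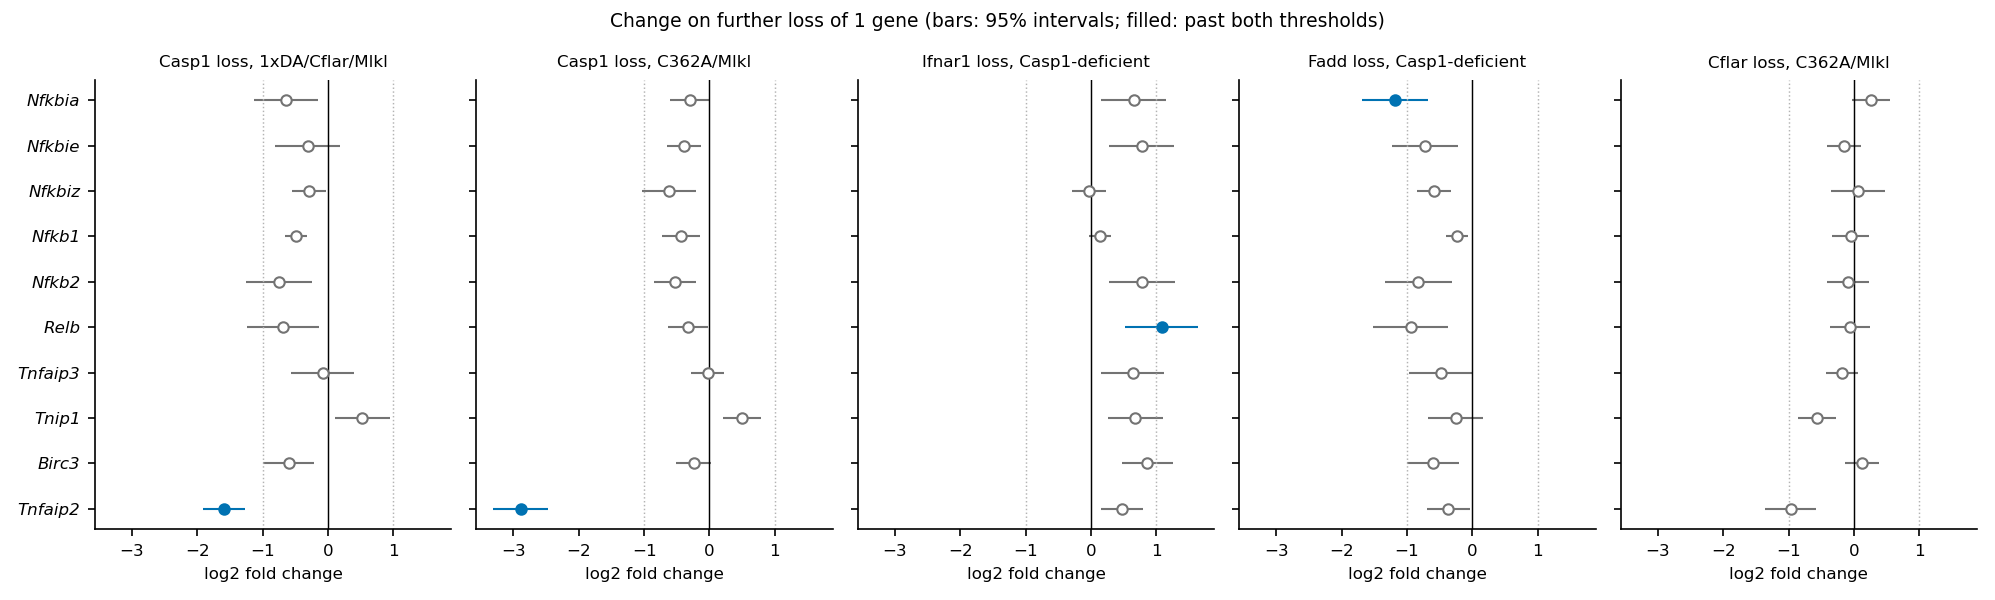
Log2 fold change of each gene on the loss of 1 further gene, with 95% intervals, in 5 comparisons. Filled points passed both thresholds. Tnfaip2 is filled for Casp1 loss in both series (-1.59 and -2.89), Relb for Ifnar1 loss (1.08) and Nfkbia for Fadd loss (-1.18). The points for Casp1, Ifnar1 and Fadd loss in the D387A series include the third 1xDA/Cflar/Mlkl/Casp1 embryo.

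In the C362A series the feedback genes were already high with Cflar intact. In C362A/Mlkl intestines 8 of the 10 genes rose against their own Mlkl controls (10.4% of all 19408 genes tested did), all 10 passed the p threshold (22.4%), and the median log2 fold change was 1.67 beside 0.02 for all genes. Tnfaip2 changed most, from 2.16, 2.06 and 2.29 RPKM to 18.7, 17.3 and 20.8 RPKM, an 8.74-fold rise (log2 3.13 ± 0.20, adjusted p = 2.4e-08). Nfkbia went from 20.2, 20.3 and 18.2 RPKM to 94.6, 80.6 and 90.7 RPKM (2.18 ± 0.14, adjusted p = 3e-08). Its control level was close to that of the D387A series' controls. Relb went from 5.22, 5.59 and 5.46 RPKM to 25.6, 28.5 and 27.8 RPKM (2.33 ± 0.15, adjusted p = 2.7e-08), and Nfkbie from 2.57, 2.73 and 2.66 RPKM to 10.8 RPKM in each of the 3 embryos (2.02 ± 0.13, adjusted p = 2.1e-08). Nfkb2 (1.85), Tnfaip3 (1.49), Birc3 (1.49) and Nfkbiz (1.22) followed. Nfkb1 (0.64 ± 0.14) and Tnip1 (0.52 ± 0.14) passed by p alone. No gene of the 10 had overlapping groups, as was so for 53.6% of all genes. The summed neutrophil markers were 582 to 720 RPKM in C362A/Mlkl against 19.8 to 54.3 RPKM in the controls, and the macrophage and monocyte markers 382 to 414 against 163 to 195 RPKM. T and NK cell markers (11.3 to 12.01 against 4.11 to 4.79) and B cell markers (2.94 to 3.81 against 1.03 to 1.53) were higher and enterocyte markers lower (14758 to 18334 against 29587 to 48425 RPKM), and their part in these changes was not tested.

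Loss of Casp1 in C362A/Mlkl intestines lowered Tnfaip2 past both thresholds, as the 1 gene of the 10 (5.72% of all genes were lower). Tnfaip2 was at 2.38, 2.92 and 2.35 RPKM, a fall by 2.89 on the log2 scale (SE 0.20, adjusted p = 2.2e-07), and no longer passed the test against the controls (0.24, 95% interval -0.19 to 0.66). The summed neutrophil markers were 55.3 to 79.5 RPKM in these embryos, far below C362A/Mlkl and above the controls. Compared with C362A/Mlkl, enterocyte markers were higher (45307 to 57292), and macrophage and monocyte (279 to 313), T and NK cell (8.70 to 9.06), B cell (1.40 to 2.45) and fibroblast markers (238 to 388 against 394 to 511 RPKM) lower, all without overlap. Their part was not tested, and the cells that carried the Tnfaip2 mRNA were not identified. Nfkb2, Nfkb1, Nfkbie and Nfkbiz fell by p alone (15.5% of all genes), by 0.39 to 0.62 on the log2 scale. Tnip1 went the other way, to 62.4, 54.8 and 45.4 RPKM from 38.9, 34.8 and 41.3 RPKM (0.50 ± 0.14, adjusted p = 0.012), where 17.9% of all genes were higher by p alone. In the D387A series the rise of Tnip1 on Casp1 loss rested on the third embryo, and without it Tnip1 was level (0.06 ± 0.09, adjusted p = 0.59).

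Without Casp1 most of the other feedback genes of the C362A series were still above control. Against Mlkl, 7 of the 10 rose in C362A/Mlkl/Casp1 (6.79% of all genes did): Nfkbia was at 81.3, 76.3 and 57.6 RPKM (1.87 ± 0.14), Relb at 27.1, 20.8 and 17.2 RPKM (2.00 ± 0.15) and Tnfaip3 at 25.1, 24.6 and 19.0 RPKM (1.46 ± 0.12). Tnfaip3 did not pass the test of Casp1 loss, with an interval of -0.28 to 0.22. Tnip1 (1.02 ± 0.14) was the seventh gene and fell under 2-fold without the first control embryo (0.96) or without the first or second C362A/Mlkl/Casp1 embryo (0.89 and 0.99). The neutrophil, macrophage and T and NK cell marker sums of these embryos, given above, were all above those of the controls without overlap, and their part was not tested.

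Loss of Cflar in C362A/Mlkl intestines moved none of the 10 past both thresholds in edgeR (6.06% of all genes passed in either direction, and 32.4% had an unadjusted p below 0.05), nor did DESeq2, whereas limma-voom called Tnfaip2. Tnfaip2 fell by p alone, to 13.6, 7.75 and 7.78 RPKM (-0.97 ± 0.18, adjusted p = 0.0025), and so did Tnip1, to 26.9, 21.6 and 29.2 RPKM (-0.57 ± 0.14, adjusted p = 0.01), as did 12.4% of all genes. Tnfaip2 was past 2-fold without the second C362A/Mlkl embryo (-1.03) or without the first C362A/Cflar/Mlkl embryo (-1.29). The intervals of the other 8 genes lay within a 2-fold change, the widest upper bound being 0.56 for Nfkbia. Against Mlkl, C362A/Cflar/Mlkl intestines had 8 of the 10 genes raised (13.4% of all genes were), with Nfkbia at 123, 97.5 and 98.9 RPKM (2.44 ± 0.15) and Tnip1 not passing (-0.04, 95% interval -0.34 to 0.25). In these embryos the summed enterocyte markers were 2577 to 7331 RPKM (29587 to 48425 in the controls), the neutrophil markers 300 to 491 (19.8 to 54.3), the macrophage and monocyte markers 299 to 379 (163 to 195), the T and NK cell markers 11.2 to 13.7 (4.11 to 4.79), the B cell markers 2.82 to 3.11 (1.03 to 1.53) and the smooth muscle markers 3297 to 4092 RPKM (1359 to 2171). The enterocyte, neutrophil, macrophage and smooth muscle sums did not overlap those of C362A/Mlkl either, and their part was not tested.

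The effect of 1xDA/Cflar/Mlkl and that of C362A/Cflar/Mlkl, each against its own controls, did not differ detectably for any of the 10 genes in an interaction test (0 of 10 in edgeR and in limma-voom, beside 0.127% of all 19643 genes in either direction). Nfkb1 alone had an unadjusted p below 0.05 (0.30, 95% interval 0.01 to 0.59, adjusted p = 0.23). The intervals were wide for some genes: the D387A effect on Nfkb2 exceeded the C362A effect by 0.57, with an interval of -0.07 to 1.2. The effect of Casp1 loss did differ between the series for Tnfaip2, which fell by 1.33 less on the log2 scale in the D387A than in the C362A series (SE 0.25, adjusted p = 0.00098), where 16.9% of all genes differed. Casp1 was lost on 1xDA/Cflar/Mlkl in the D387A series but on C362A/Mlkl, with Cflar intact, in the other. The Casp8 mutation and Cflar therefore cannot be told apart in this contrast. Mean Tnfaip2 before Casp1 loss was 9.09 RPKM in 1xDA/Cflar/Mlkl and 18.9 in C362A/Mlkl, and it was 9.71 in C362A/Cflar/Mlkl. For the other 9 genes no difference was detected with all 3 Casp1-deficient embryos in the fit. Without the third 1xDA/Cflar/Mlkl/Casp1 embryo 6 genes differed, where 21.9% of all 20096 genes tested did: Nfkbia (-0.88 ± 0.17), Relb (-0.997 ± 0.19), Nfkb2 (-0.81 ± 0.17), Birc3 (-0.74 ± 0.16) and Tnfaip3 (-0.57 ± 0.15) were lowered more in the D387A series, and Tnfaip2 (1.095 ± 0.24) less.

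In MEFs the same genotype contrast, 1xDA/Cflar/Mlkl against Mlkl, moved very few genes of the genome, and 3 of them were among the 10. Of 15465 genes tested, 11 rose past both thresholds (0.0711%) and none fell (2 fell by adjusted p alone). The 3 were Nfkbie, Relb and Nfkbia. Nfkbie went from 1.94, 1.56 and 2.20 RPKM to 6.17, 6.03 and 4.62 RPKM (1.56 ± 0.17, adjusted p = 0.018). Relb went from 5.60, 4.96 and 5.0 RPKM to 10.4, 12.4 and 12.3 RPKM (1.17 ± 0.11, adjusted p = 0.0086), and Nfkbia from 14.4, 13.5 and 14.0 RPKM to 28.9, 31.2 and 30.7 RPKM (1.12 ± 0.07, adjusted p = 0.0012). In each of the 3 genes every mutant culture was above every control culture. Nfkb2 passed by p alone, at 24.9, 27.2 and 28.3 RPKM against 15.2, 15.3 and 16.5 RPKM (0.78 ± 0.07, adjusted p = 0.0069), where 0.097% of all genes were higher by p. The calls of Nfkbie and Relb did not survive every smaller set of cultures, while the sizes hardly moved: without the second Mlkl culture Nfkbie was at 1.44 (adjusted p = 0.12) and Relb at 1.14 (adjusted p = 0.067), without the second 1xDA/Cflar/Mlkl culture they were at 1.5 (adjusted p = 0.11) and 1.13 (adjusted p = 0.067), Nfkbie lost its call without the first Mlkl culture (1.58, adjusted p = 0.09) and Relb without the third 1xDA/Cflar/Mlkl culture (1.13, adjusted p = 0.052).

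The remaining 6 genes did not pass in MEFs. Birc3 (0.67), Tnfaip3 (0.56), Tnip1 (0.36) and Tnfaip2 (0.35) were higher in every mutant culture than in every control culture, which was so or the reverse for 12.5% of all genes, while Nfkb1 (0.15) and Nfkbiz (-0.13) overlapped. Tnfaip2 was at 12.8, 16.2 and 19.6 RPKM in Mlkl MEFs. The summed neutrophil markers were 0.15 to 0.221 RPKM in Mlkl and 0.617 to 2.87 RPKM in 1xDA/Cflar/Mlkl MEFs, with Retnlg at 0 in all 6, and the summed macrophage and monocyte markers 27.6 to 40.6 and 30.4 to 39.7 RPKM.

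The change was larger in intestine than in MEFs for 8 of the 10 genes when the difference itself was tested (21.5% of all 18862 genes had the larger change in intestine). The difference of the log2 fold changes was 1.81 ± 0.22 for Tnfaip2 (adjusted p = 1.1e-06), 1.64 ± 0.31 for Nfkbia (adjusted p = 0.00026), 1.58 ± 0.31 for Nfkb2 and 1.42 ± 0.36 for Relb. Nfkbie was the exception among the genes that rose in both, with a difference of 0.26 (95% interval -0.45 to 0.97), and Tnip1 rose in neither (-0.08, 95% interval -0.63 to 0.46). Intestine and MEFs were sequenced as separate sets, and the changes of the 10 genes are compared here through each set's own controls.

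**Figure D5:**
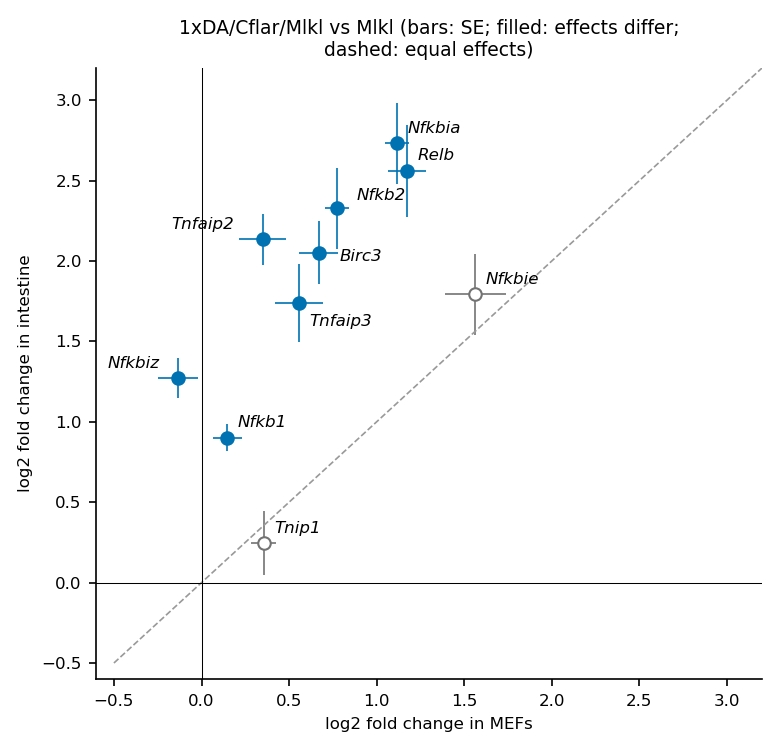
Log2 fold change of 1xDA/Cflar/Mlkl against Mlkl in intestine (vertical axis) and in MEFs (horizontal axis), with SE bars, for the 10 genes. Filled points are the 8 genes whose effects differed between the tissues, and the dashed line marks equal effects. Nfkbia (2.73 in intestine, 1.12 in MEFs) and Relb (2.56 and 1.17) lie highest, and Nfkbie and Tnip1 lie near the line.

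The rest of the pathway did not rise evenly. Counts were made over 4 lists of NF-kB genes outside the 10. Of 13 tested targets that encode cytokines, chemokines, adhesion molecules and survival proteins, 11 rose and 1 fell in 1xDA/Cflar/Mlkl intestines. Their median was 3.06 on the log2 scale, beside -0.01 for all genes. The chemokine genes Cxcl1 (6.41 ± 0.94) and Cxcl2 (6.33 ± 0.69) and the cytokine gene Tnf (5.62 ± 0.75) changed most, and Csf2, the gene of the growth factor GM-CSF, fell (-2.16 ± 0.42). Of all genes 9.4% rose and 12.8% fell. Tnf was at 0.0923, 0.0321 and 0.0610 RPKM in the Mlkl and at 2.29, 3.74 and 3.63 RPKM in the mutant intestines. Its control level is near the floor, and it passed the filter on low counts through groups where it was high. The size of its fold change, its rank and its place in the count are therefore less certain.

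The signalling machinery and the brakes had shares nearer to the 9.4% of all genes that rose, and nothing particular to them is read from the counts. Of 18 receptors, adaptors and kinases 3 rose: Tnfrsf1b, the gene of TNF receptor 2 (2.39 ± 0.16), Traf3, which restrains the non-canonical arm (1.25 ± 0.11), and Map3k14, whose product NIK drives that arm (1.09 ± 0.12), and the list's median was 0.18. Of 13 other brakes on the pathway 2 rose, Tnip3 (6.02 ± 0.71), a relative of Tnip1, and Zc3h12a, the gene of the RNase regnase-1 (2.17 ± 0.27). Of the 5 remaining subunit and IkB genes Bcl3 (2.10 ± 0.23) and Rel (1.94 ± 0.21) rose, and Rela, at 21.8, 20.8 and 19.5 RPKM in the controls and 28.3, 31.8 and 28.8 RPKM in the mutants, passed by p alone (0.52 ± 0.07).

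In some of the other comparisons the same lists gave the following counts, and those of the Casp1-deficient groups against Mlkl are not given. In C362A/Mlkl intestines 12 of 14 targets rose and 1 fell, with Cxcl2 (7.91 ± 0.44), Cxcl1 (5.64 ± 0.65) and Tnf (5.07 ± 0.41) leading, and 3 of 13 brakes and 3 of 5 subunit or IkB genes rose, where 10.4% of all genes rose and 7.55% fell. In MEFs none of the 4 lists had a gene past both thresholds in edgeR (Traf3, at 0.53, passed by adjusted p alone, and 11 of the 46 genes tested had an unadjusted p below 0.05, 10 of them higher). On Casp1 loss in the D387A series 4 of 13 targets fell and 2 rose: Il6 (-3.83 ± 0.49), Lcn2 (-2.90 ± 0.45), Ptgs2 (-2.25 ± 0.36) and Ier3 fell, while the epithelial chemokine gene Ccl20 (1.27 ± 0.23) and Csf2 rose, where 4.51% of all genes fell and 8.88% rose. On Casp1 loss in the C362A series 5 of 14 fell, led by Lcn2 (-4.50 ± 0.31) and Cxcl2 (-2.70 ± 0.28), and again Ccl20 rose (2.24 ± 0.22), where 5.72% of all genes fell and 5.6% rose. Fadd loss lowered 4 of 13 targets, with Cxcl1 (-2.74 ± 0.72) and Cxcl2 (-2.64 ± 0.42) leading, and 2 of 13 brakes, Tnip3 and Zc3h12a, where 0.877% of all genes fell. Without the third Casp1-deficient embryo 7 of 13 targets fell and 1 rose on Casp1 loss (6.36% and 9.41% of all genes did), 7 of 13 rose on Ifnar1 loss in place of 3 (6.06% of all genes did), and 1 fell on Fadd loss in place of 4 (0.894% of all genes did). On Fadd loss 1 of the 13 brakes then fell and 2 rose, in place of 2 that fell, and 3.96% of all genes rose.

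The shape of the response over genotypes can be put in 1 number, the root mean square difference between 2 genes' log2 fold changes over the 8 mutant intestinal genotypes, each against its own Mlkl controls. Within the 10 genes, Nfkbia and Relb were nearest to each other (0.164), and Nfkb2 and Birc3 next (0.180). Tnip1 and Nfkbia (1.56) and Nfkb1 and Relb (1.59) were among the pairs farthest apart. Over 18186 genes compared, those outside the list with the profile nearest to Nfkbia were Icam1, an adhesion molecule gene (0.308), Zc3h12a (0.346), Tmem238l (0.398), Cxcl16 (0.408) and Pglyrp1 (0.456), against a median of 2.10 for all genes. Nearest to the median profile of the 10 were Gm36283 (0.193), Noxa1 (0.246), Gm7019 (0.250), Bcl3 (0.270) and Susd3 (0.285). The genotypes of a series share their controls, so these distances describe the 8 profiles and were not tested. Without the third 1xDA/Cflar/Mlkl/Casp1 embryo Nfkb2 and Birc3 (0.176) were the nearest pair and Nfkbia and Relb (0.182) the next, Tlr2 (0.457) took the place of Pglyrp1 among the 5 genes nearest to Nfkbia, and the 5 nearest to the median profile were the same genes.

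The order of the genotypes by level was not the same for every gene. For Nfkbia in the D387A series it was Casp1/Ifnar1, 1xDA/Cflar/Mlkl, Casp1, Casp1/Fadd, Mlkl and 1xDA, in which 1xDA/Cflar/Mlkl overlapped both of its neighbours and Mlkl overlapped 1xDA, while Casp1 did not overlap Casp1/Fadd and Casp1/Fadd did not overlap Mlkl. The overlap of 1xDA/Cflar/Mlkl with Casp1 came from the third Casp1 embryo (141 RPKM), as the rest of that group were at 58.1 and 56.5 RPKM. For Tnfaip2 it was 1xDA/Cflar/Mlkl, which overlapped no other group, then Casp1/Ifnar1, which did not overlap Casp1, and then Casp1, Casp1/Fadd, 1xDA and Mlkl, each overlapping the next. For Tnip1 it was Casp1/Ifnar1, Casp1, Casp1/Fadd, 1xDA/Cflar/Mlkl, 1xDA and Mlkl, and the one gap between neighbours lay between Casp1/Fadd (37.5 to 43.7 RPKM) and 1xDA/Cflar/Mlkl (31.7 to 34.9 RPKM). In the C362A series Nfkbia ran from C362A/Cflar/Mlkl over C362A/Mlkl and C362A/Mlkl/Casp1 to Mlkl, with an overlap between the middle pair alone, and Tnip1 from C362A/Mlkl/Casp1 over C362A/Mlkl to Mlkl and C362A/Cflar/Mlkl, the last pair overlapping.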

How the data were processed

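RNA-seq of 36 mouse libraries was analysed from the gene count tables that the authors deposited, 1 per library. Per the labels and the study's methods, the authors aligned reads with GSNAP to GRCm38 (mm10). The counting program, its annotation and its use of strand are not given in the sources used here, and the labels and the methods name different library kits. The deposited files hold whole-number counts, exonic widths and RPKM made by the authors on their own totals. Only counts and widths were used, and RPKM printed here was recomputed from counts with TMM library sizes.

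Each series (18 D387A intestines, 12 C362A intestines, 6 MEFs) was fitted by itself in edgeR 4.0.16 (R 4.3.3) with the quasi-likelihood test, after a filter at 10 reads in the smallest group and 15 in all, with Benjamini-Hochberg adjustment over all genes tested. Calls need an adjusted p below 0.05 and a 2-fold change (log2 fold change of 1), as in the study. Differences of effects were tested as contrasts in a joint fit. RMS distances are over fold changes. Both Mlkl intestine groups carry the same genotype label and were tied to a series by their titles. Alternatives were RLE size factors, a prior count of 2, no filter, a filter on genes averaging under 50 reads, a replicate block, limma-voom 3.58.1, DESeq2 1.42.0, a fit of the 2 groups compared, and leaving out each library.

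The 10 genes, the pathway lists and the marker lists were chosen with earlier results of these data known, and Nfkbia is a gene the study itself followed in these samples. Named genes are all 10, the 3 with the largest change among those called in each pathway list, and the 5 nearest profiles, and a few further list genes were named after their values were seen. Replicates are labelled as biological replicates. The labels do not say which embryos shared a litter, and p-values measure the spread between these samples. Replicate pairs of 1 group differed by 5.01 to 70.9 times the Poisson noise, so none was a copy. In MEFs, libraries with the same number deviated together (r = 0.181 to 0.310 for the 3 pairs), so the numbers may pair the cultures, which is read from these correlations alone. The MEF values printed here come from the fit without pairs. A replicate block, run as an alternative, left the 3 calls at 3. On counts simulated for 1xDA/Cflar/Mlkl against Mlkl (17879 genes), 99 of 100 genes changed by 1.5 on the log2 scale and 100 of 100 changed by 2 were called, with 1 of 17679 unchanged genes. The simulation gave every gene the same spread, changed few genes, equally up and down, and held no outlying embryo. Its rates show that known changes are recovered, and they are not the rates of true or false calls in these data.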

Additional observations from a re-analysis of the deposited data

Results flagged for a closer look

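For 8 of the 10 genes the change in 1xDA/Cflar/Mlkl against Mlkl differed between intestine and MEFs in the test of the difference. On the log2 scale the intestinal change exceeded the one in MEFs by 1.64 for Nfkbia, 1.43 for Nfkbiz, 0.78 for Nfkb1, 1.58 for Nfkb2, 1.42 for Relb, 1.21 for Tnfaip3, 1.41 for Birc3 and 1.81 for Tnfaip2, with adjusted p between 1.1e-06 (Tnfaip2) and 0.0054 (Tnfaip3). All 3 mutant intestines lay above all 3 controls for each of these genes.

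The effect of Casp1 loss on Tnfaip2 differed between the series, being 1.33 less negative on the log2 scale in the D387A series (adjusted p = 0.00098). Cflar was lost in the D387A groups of this contrast and intact in the C362A groups, so it cannot be told apart from the Casp8 mutation. Tnfaip2 was lower in 3 of 3 Casp1-deficient embryos in both series.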

How the results depend on the processing

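The number of the 10 genes called was the same with a replicate block as without it in all 17 comparisons (8 in 1xDA/Cflar/Mlkl and 3 in MEFs, for example). Outside MEFs equal replicate numbers did not pair the samples, with 9 of 45 same-number pairs over a correlation of 0.1 in the D387A and 4 of 18 in the C362A series, and 8 of 18 and 2 of 12 libraries correlating best with their own number. In the fit of the 2 groups compared, no gene was called for Ifnar1 loss or Fadd loss (0 each, Relb adjusted p = 0.094 and Nfkbia adjusted p = 0.082), and in limma-voom 1 gene was called for Cflar loss in the C362A series (Tnfaip2, -1.02). With no filter 6 in place of 7 genes were called for C362A/Mlkl/Casp1 against Mlkl, as Tnip1 was then at 0.99.

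Leaving out 1 library gave 1 to 2 calls for Casp1/Fadd against Mlkl, 1 to 5 for Casp1 loss and 0 to 7 for Ifnar1 loss in the D387A series, 0 to 3 for Fadd loss, 0 to 1 for Cflar loss, 1 to 3 in MEFs, and 1 to 6 genes differing for Casp1 loss between the series.

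Under other settings 1249 values of single genes kept direction and side of the threshold, 3 lost it, 1 gained it and 7 changed sign, all near 0 and past no threshold: in the difference of Casp1 loss, Tnfaip3 was 0.0060 without a filter and 0.023 with the filter at a mean of 50 reads, Nfkb1 0.020 with that filter and Tnip1 -0.040 in limma-voom, and in the difference between 1xDA/Cflar/Mlkl and C362A/Cflar/Mlkl, Nfkbiz was 0.018 and Tnfaip2 0.019 without a filter, and Tnfaip2 0.016 in limma-voom. With 1 library left out the sign changed in Nfkbia (-0.10 to 0.041) for 1xDA against Mlkl, Tnfaip3 (-0.63 to 0.14) for Casp1 loss (D387A), Tnfaip3 (-0.70 to 0.069), Tnip1 (-0.45 to 0.21) for Fadd loss, Nfkbiz (-0.16 to 0.042) for Ifnar1 loss, Tnip1 (-0.15 to 0.069) for C362A/Cflar/Mlkl against Mlkl, Nfkbiz (-0.051 to 0.20), Nfkb1 (-0.14 to 0.034), Nfkb2 (-0.18 to 0.011), Relb (-0.16 to 0.016) for Cflar loss, Tnfaip3 (-0.10 to 0.080) for Casp1 loss (C362A), Tnfaip3 (-0.57 to 0.18), Nfkbie (-0.36 to 0.31), Nfkb1 (-0.12 to 0.048), Nfkb2 (-0.81 to 0.023), Tnip1 (-0.41 to 0.24) for the difference of Casp1 loss and Nfkbiz (-0.28 to 0.16), Tnfaip2 (-0.17 to 0.29), Nfkbie (-0.20 to 0.059) for the difference of 1xDA/Cflar/Mlkl and C362A/Cflar/Mlkl. The cause was not tested.

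Unscaled library sizes would move the median of all genes by up to 0.277 on the log2 scale (C362A/Cflar/Mlkl against Mlkl), and fold changes here are relative to the TMM median. With 3 samples a group, an SE widened by 1 embryo, as in 1xDA/Cflar/Mlkl/Casp1, limits the comparisons with that genotype.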
